A study of Rattus norvegicus with 6 samples.

Results

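The extracellular matrix of tendon is represented here by 7 genes, taken by their rat Ensembl identifiers from the 19133 genes measured in cultured rat tenocytes. They are *Col1a1* (ENSRNOG00000003897), *Col1a2* (ENSRNOG00000011292), *Col3a1* (ENSRNOG00000003357), *Fn1* (ENSRNOG00000014288), *Sparc* (ENSRNOG00000012840), *Lox* (ENSRNOG00000014426) and *Dcn* (ENSRNOG00000004554). All 7 were present and all 7 passed the filter on low values. Tenocytes, the fibroblast-like cells that build and maintain tendon, had been isolated with collagenase from the Achilles tendons of Sprague–Dawley rats. The control group (n = 3 libraries) received complete medium, and the IL−1β group (n = 3 libraries) received complete medium with 50 ng/mL of IL−1β, a proinflammatory cytokine, for 24 h. The labels name no genetic change in either group. The labels do not say how many animals or cultures the libraries came from. The paper describes its data as coming from independent experiments and gives n = 3 for the sequencing. Neither source says whether the libraries came from separate animals, so how far their spread reflects animals, cultures or technical steps is not known.

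Tendon owes its tensile strength to fibrils of type I collagen, a triple helix in which a pair of α1(I) chains, the product of *Col1a1*, winds around an α2(I) chain, the product of *Col1a2*. Type III collagen, encoded by *Col3a1*, forms thinner fibrils mixed with those of type I and is prominent in young and healing tendon. Fibronectin (*Fn1*) and SPARC (*Sparc*) bind collagen and take part in its assembly outside the cell, lysyl oxidase (*Lox*) cross-links collagen and elastin, and decorin (*Dcn*), a small leucine-rich proteoglycan, coats collagen fibrils and limits their lateral fusion.

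With IL−1β, the 7 genes did not move as a block. The decorin gene rose 19.0-fold and the lysyl oxidase gene 2.69-fold, whereas *Col3a1* fell to 54.6% and *Col1a1* to 78.5% of the control level. *Fn1* (89.6% of control) and *Sparc* (87.2%) lay below the control level without passing the test, and *Col1a2* (74.5%) could not be placed because the 3 control libraries disagreed. An adjusted p under 0.05 in limma was reached by 4 of the 7 genes, where 38.4% of the 12408 tested genes did so. In each direction 2 of the 7 were called, against 19.3% of tested genes higher and 19.1% lower with IL−1β. When an absolute log2 fold change over 1 was also required, 2 of the 7 remained, both higher with IL−1β, where 5.37% of tested genes were higher and 3.32% lower by this rule. The median log2 fold change of the 7 genes was −0.20, and their median absolute change was 0.43, against 0.20 for all tested genes. RNA was measured in bulk, so a change in the number of cells that express a gene cannot be told apart from a change in RNA per cell.

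**Figure D1:**
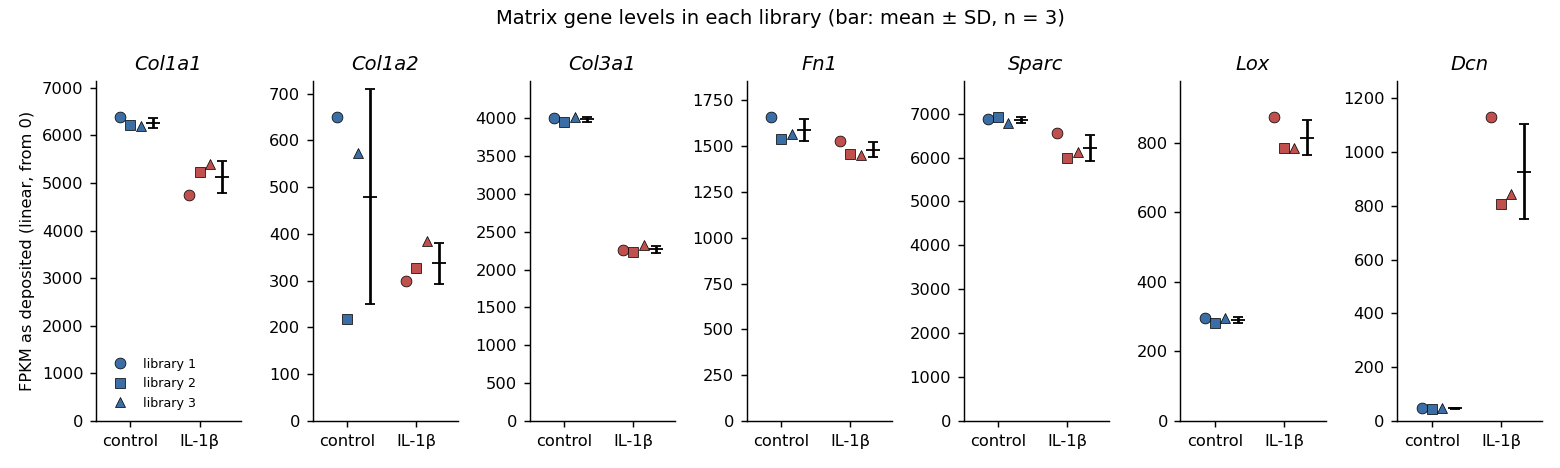
FPKM as deposited (linear axes from 0, a separate axis for each gene) of the 7 matrix genes in each library, control in blue and IL−1β in red, with the mean and SD of each group (n = 3) as a bar. The groups overlap only for *Col1a2*, where control library 2 lies at 217.4 FPKM, below both other controls.

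Between 36506669 and 43098779 reads per library were recovered from the steps of the deposited values, and the ranges of the groups overlapped. In each library this was 99.7% of the total by which the values had been divided, as inferred from the same steps. Values are in FPKM, that is, fragments divided by the gene's length in kilobases and by the depth of the library, so levels of different genes can be compared per unit of length. Across the tested genes, log2 values correlated at Pearson's r of 0.979 to 0.985 between libraries of a group and at 0.917 to 0.931 between libraries of different groups, a description across genes, which are not independent replicates. Fold changes were computed on log2(FPKM + 0.1) after scaling by size factors of 0.972 to 1.04. An exact permutation test of 3 libraries against 3 cannot give a p below 0.10, so the call of a gene rests on the spread that limma estimates with the help of all tested genes. Of the 7 genes, 6 had groups that did not overlap, 2 of them higher and 4 lower with IL−1β. The same held for 51.4% of the tested genes as a whole, 25.5% higher and 25.9% lower. The tenocyte identity of the cells could not be checked on transcription factors or surface markers, because only the identifiers of these 7 genes were paired with symbols.

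Of the fibrillar collagens, *Col1a1* and *Col3a1* were among the most abundant transcripts of these cells. *Col1a2* ranked lower by mean FPKM, at 124 without IL−1β and 205 with it. *Col1a1* stood at 6376, 6207 and 6190 FPKM in control libraries 1, 2 and 3 and at 4740, 5233 and 5392 FPKM in IL−1β libraries 1, 2 and 3. Every IL−1β library was below every control library, and the spread was wider with IL−1β (5122 ± 340 FPKM) than in the control group (6258 ± 103 FPKM; SD, n = 3 each). The log2 fold change was −0.35 (standard error 0.07, adjusted p = 0.0059 in limma), with a 95% interval of −0.51 to −0.19. In spite of this fall, *Col1a1* ranked 7 by mean FPKM among all 19133 genes without IL−1β and 8 with it. The call did not hold under quantile normalization, where the log2 fold change shrank to −0.063 (adjusted p = 0.459 in limma). Without a filter on low values the estimate stayed at −0.349, but its adjusted p of 0.0852 in limma did not pass.

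*Col3a1* had the tightest replicates of the 7 genes. Its level was 4006, 3949 and 4010 FPKM in the control libraries and 2259, 2226 and 2320 FPKM in the IL−1β libraries, with no overlap and an SD of 33.8 and 47.6 FPKM. Its log2 fold change was −0.87 (standard error 0.05, adjusted p = 1.63e-05 in limma), with a 95% interval of −0.995 to −0.749, so the fall came close to the 2-fold threshold without passing it. Of the 12408 tested genes, 614 fell more than *Col3a1* on the log2 scale. Under quantile normalization the log2 fold change of *Col3a1* was −0.479, still with an adjusted p under 0.05. Its rank by level went from 14 to 20.

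The ratio of *Col3a1* to *Col1a1* within a library does not depend on the scaling between libraries. This ratio was 0.628, 0.636 and 0.648 in the control libraries and 0.477, 0.425 and 0.430 in the IL−1β libraries. Every IL−1β library thus had less *Col3a1* per *Col1a1* transcript than every control, and the group means of the log2 ratio differed by −0.52 (exact two-sided permutation p = 0.1, the smallest that 3 against 3 libraries allow). This was 1 of 6 ratios compared.

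*Col1a2* gave a different picture from the gene of its partner chain. The control libraries held 649.1, 217.4 and 572.8 FPKM and the IL−1β libraries 298.5, 327.7 and 385.3 FPKM. Control library 2 was thus lower than all IL−1β libraries, and the other controls were higher than all of them. The low value rested on 35623 recovered reads, against 112307 and 107259 in control libraries 1 and 3, so counting error is not the limit. In limma the log2 fold change was −0.42 (standard error 0.38, adjusted p = 0.43), with a 95% interval from −1.33 to 0.48 that covers both a fall of more than 2-fold and a rise. Without control library 2 it was −0.925 (adjusted p = 0.00175), without control library 1 it was −0.125 (adjusted p = 0.835), and without control library 3 it was −0.230 (adjusted p = 0.721).

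The low *Col1a2* value was not shared by the other 6 genes in that library. In control library 2, *Col1a2* stood at 35.6% of the mean of control libraries 1 and 3, whereas the other genes stood at between 90.8% (*Dcn*) and 101.3% (*Sparc*) of it. Among the 716 tested genes with a scaled mean of at least 100 FPKM, 2 were more than 2-fold below both other controls in control library 2, *Col1a2* being one of them, and none was more than 2-fold above. Control library 1 had the same counts, 2 below and 0 above, and control library 3 had 0 and 0. IL−1β libraries 1, 2 and 3 each had 1 gene below both others of their group, and 2, 1 and 0 above. The SD of the *Col1a2* log2 values in the control group was 0.87, which ranked 4 among these 716 genes, where the median over all tested genes was 0.085. What lowered this value was not tested.

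The ratio of *Col1a1* to *Col1a2* was 9.82, 28.6 and 10.8 in the control libraries and 15.9, 16.0 and 14.0 in the IL−1β libraries. On the log2 scale the group means differed by 0.08 (exact two-sided permutation p = 1), with an SD of 0.85 among controls and 0.11 among IL−1β libraries. In control libraries 1 and 3 the ratio was below that of every IL−1β library, and in control library 2 it was above. The IL−1β minus control difference in the log2 ratio was 0.566 without control library 2. It was −0.204 without control library 1 and −0.135 without control library 3. With an IL−1β library left out it lay between 0.043 and 0.138, so its direction depended on the library left out.

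**Figure D2:**
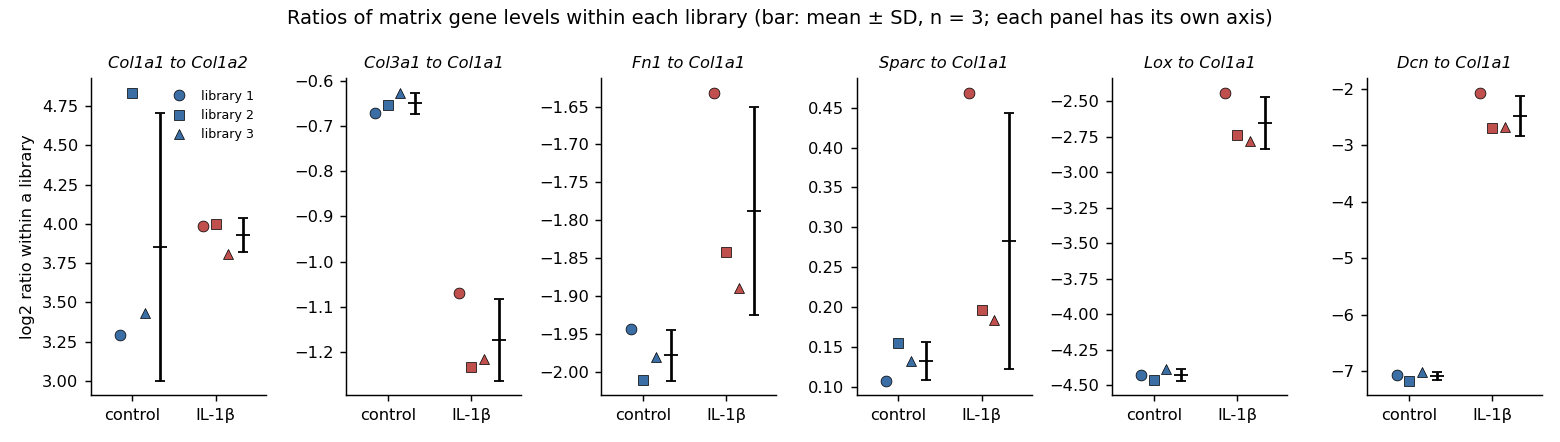
Log2 ratio of the FPKM of 2 matrix genes within each library (each panel has its own axis), control in blue and IL−1β in red, with mean and SD (n = 3). The *Col3a1* to *Col1a1* ratio is lower in all 3 IL−1β libraries, the *Lox* and *Dcn* to *Col1a1* ratios are higher in all 3, and the *Col1a1* to *Col1a2* ratio overlaps because control library 2 stands apart.

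Since *Col1a2* was the gene with the discordant control, a stretch of its promoter is given for orientation, from the RefSeq table of GRCr8 (chr4:33518307-33518406, plus strand, bases 250 to 151 upstream of the annotated start). The capitals mark a CCAAT box on the opposite strand (read as ATTGG) and a TATAAA element.
Col1a2: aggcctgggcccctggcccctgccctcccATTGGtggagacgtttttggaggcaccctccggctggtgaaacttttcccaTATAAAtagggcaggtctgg
The first bases of these matches lie 221 and 170 bases upstream of the annotated start. Of the 33469 promoters of 300 bases in that table, 37.5% hold CCAAT and 14.2% hold TATAAA on either strand. The same 300-base window was searched on both strands for TGANTCA, the AP-1 element (in 7.33% of all promoters), for GGGCGG, the GC box (33.1%), and for the NF-κB consensus (7.51%), and held none of these letters. The *Sparc* window, the only other one of the 7 matched by symbol, held none of the 5 motifs. A match is a string of letters and no evidence of binding. The annotated start was not checked against these data, and a motif absent from the window may lie outside it.

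The collagen-binding organisers of the matrix stayed close to the control level. *Fn1* was at 1657, 1540 and 1568 FPKM in the control libraries and at 1530, 1459 and 1455 FPKM in the IL−1β libraries. The groups did not overlap, but the gap between the lowest control and the highest IL−1β library was small beside the spread within the groups (1589 ± 61.1 and 1481 ± 41.9 FPKM; SD, n = 3 each). The log2 fold change of −0.16 (standard error 0.06, adjusted p = 0.073 in limma) did not pass, and its 95% interval of −0.30 to −0.02 reaches down to 81.3% of control.

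*Sparc* was the most abundant of the 7 genes in all 6 libraries, ranking 5 among all genes in the control group and 6 with IL−1β. It stood at 6871, 6914 and 6782 FPKM in the control libraries and at 6560, 5997 and 6123 FPKM in the IL−1β libraries, again without overlap. Its log2 fold change was −0.20 (standard error 0.07, adjusted p = 0.063 in limma), with a 95% interval of −0.36 to −0.03. For both *Fn1* and *Sparc* the call depended on the fit. Without IL−1β library 1 both passed (adjusted p = 0.0336 for *Fn1* and 0.0147 for *Sparc*), as they did with limma-voom on the recovered reads (0.0308 and 0.0107).

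Relative to *Col1a1*, both genes stood higher with IL−1β, although neither rose itself. Their log2 fold changes were −0.16 (*Fn1*) and −0.20 (*Sparc*), against −0.35 for *Col1a1*, the denominator that both ratios share. The ratio of *Fn1* to *Col1a1* was 0.260, 0.248 and 0.253 in the control libraries and 0.323, 0.279 and 0.270 in the IL−1β libraries. That of *Sparc* to *Col1a1* was 1.08, 1.11 and 1.10 in the control libraries and 1.38, 1.15 and 1.14 in the IL−1β libraries. Both ratios were higher in every IL−1β library (exact two-sided permutation p = 0.1 each, the smallest possible), with IL−1β library 1 the highest in each. That library had the lowest *Col1a1* and the highest *Fn1* and *Sparc* of its group. The log2 difference of group means was 0.190 for *Fn1* and 0.151 for *Sparc*, and without IL−1β library 1 it was 0.112 and 0.058.

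The cross-linking enzyme and the fibril-coating proteoglycan moved the other way. *Lox* was at 296.0, 281.1 and 296.7 FPKM in the control libraries and at 873.5, 786.5 and 787.0 FPKM in the IL−1β libraries. All IL−1β values were more than 2-fold above all controls, and the log2 fold change was 1.43 (standard error 0.06, adjusted p = 4.12e-06 in limma), with a 95% interval of 1.28 to 1.57. By level *Lox* went from rank 220 to rank 80 among all genes, and 430 tested genes rose by more on the log2 scale. The ratio of *Lox* to *Col1a1* transcripts went from 0.0466 ± 0.0013 to 0.160 ± 0.0210 (SD, n = 3 each; exact two-sided permutation p = 0.1).

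*Dcn* showed the largest change of the 7 genes. It stood at 47.5, 43.2 and 47.7 FPKM in the control libraries, resting on 3421, 2949 and 3716 recovered reads, and at 1128, 805.6 and 844.7 FPKM in the IL−1β libraries, resting on 78106, 64839 and 57920 reads. The lowest IL−1β library was thus far above the highest control, although the IL−1β libraries varied more among themselves (926.2 ± 176 FPKM) than the controls (46.2 ± 2.5 FPKM; SD, n = 3 each). The log2 fold change was 4.25 (standard error 0.13, adjusted p = 8.13e-07 in limma), with a 95% interval of 15.4-fold to 23.6-fold. Only 66 of the 12408 tested genes rose by more on the log2 scale. *Dcn* was the lowest of the 7 genes in every control library, at rank 1527 among all genes by level, and in every IL−1β library it lay above *Lox* and *Col1a2*, at rank 65.

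**Figure D3:**
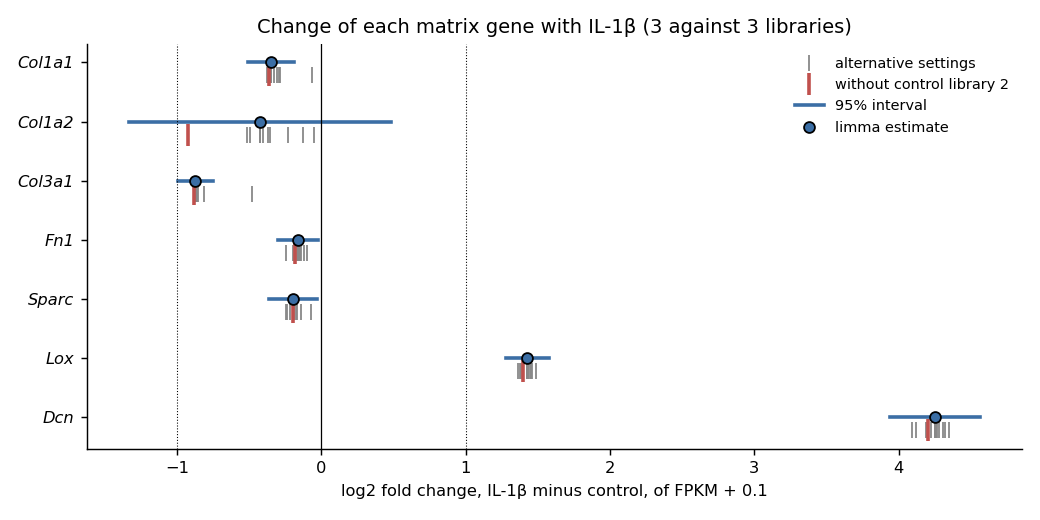
Log2 fold change (IL−1β minus control) of the 7 matrix genes with the 95% interval from limma, and below each, as ticks, the values under 18 alternative settings, with the fit without control library 2 in red. *Lox* and *Dcn* stay right of the dotted 2-fold line throughout, and the estimate of *Col1a2* moves from −0.42 to −0.925 without control library 2.

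**Figure D4:**
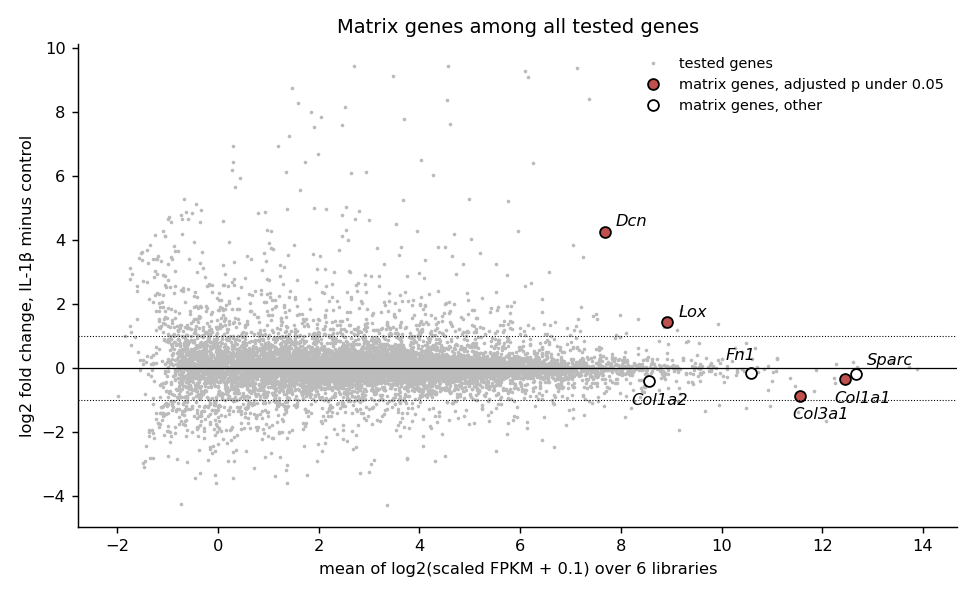
Log2 fold change against mean log2 level for the 12408 tested genes (grey) with the 7 matrix genes marked, filled where the adjusted p was under 0.05. *Sparc*, *Col1a1*, *Col3a1* and *Fn1* lie at the abundant end with falls of under 2-fold, and *Dcn* lies far above the 2-fold line.

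The order of the 7 genes by level within a library was partly fixed. From the highest down, *Sparc*, *Col1a1*, *Col3a1* and *Fn1* came in this order in all 6 libraries. Below them the order was *Col1a2*, *Lox*, *Dcn* in control libraries 1 and 3, *Lox*, *Col1a2*, *Dcn* in control library 2, and *Dcn*, *Lox*, *Col1a2* in all 3 IL−1β libraries. *Sparc* and *Col1a1* were close in the control group, with a ratio of 1.08 to 1.11. The pair of *Dcn* and *Lox* was close with IL−1β, where the values of *Dcn* in libraries 2 and 3 (805.6 and 844.7 FPKM) lay within the range of *Lox* (786.5 to 873.5 FPKM).

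Within the IL−1β group, library 1 was the highest for *Fn1*, *Sparc*, *Lox* and *Dcn* and the lowest for *Col1a1* and *Col1a2*. With only 3 libraries in a group, any one is often the highest or lowest for a gene. How often library 1 was so over all tested genes was not counted. Without this library the log2 fold change was 4.089 for *Dcn* and 1.364 for *Lox*, each still past both thresholds.

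Together the 7 genes made up 4.09%, 3.82% and 3.94% of the sum of FPKM in the control libraries and 3.39%, 3.29% and 3.38% in the IL−1β libraries (exact two-sided permutation p = 0.1, the smallest possible). By recovered reads, which weigh long genes more, they held 8.69% ± 0.21 of the control libraries and 7.33% ± 0.11 of those with IL−1β (SD, n = 3). *Col1a1* alone held 3.66% ± 0.06 of the reads in the control group and 2.99% ± 0.20 with IL−1β. *Dcn* rose from 0.0086% to 0.173% of the reads and *Lox* from 0.140% to 0.393%, gains smaller than the loss of *Col3a1*, which went from 1.91% to 1.08%.

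The average of the 7 log2 profiles, each centred on its mean, was 0.52 higher with IL−1β, a value set mostly by *Dcn*. It lies between the smallest fall (*Fn1*, −0.16) and the rise of *Lox* (1.43), so it describes none of the genes singly. Nearest to that average over the 6 libraries, by Euclidean distance, were ENSRNOG00000051235 (distance 0.044) and ENSRNOG00000016913 (distance 0.091). Their log2 fold changes were 0.49 and 0.50. Both had low levels, with control and IL−1β means of 2.22 and 3.29 FPKM for the former and 0.92 and 1.40 FPKM for the latter. Being near the average does not make them resemble any matrix gene.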

How the data were processed

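Polyadenylated RNA of tenocytes was sequenced in 6 paired-end libraries (3 control, 3 IL−1β) on DNBSEQ-T7. The submitters' processing notes name HISAT2 and featureCounts. Versions, genome build, annotation and strand setting are not given in the sources used here, so overlapping genes could share reads. The only coordinates given are those of the *Col1a2* promoter in GRCr8, which need not be the build behind the FPKM values. The authors deposited FPKM per gene and library, without pooling, and no read counts. The reference table pairs 0 of the 19133 identifiers with symbols. Symbols of the 7 genes came with the list that defines them, and planned counts over further matrix lists and markers were not run. The members and lists were chosen with earlier results of these data known.

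Whole reads that fit the deposited values were found for all 19133 genes (tolerance 0.02 read), with any gene without reads counted as solved. They came from ratios of low values and whole gene lengths (Python 3.11.15), a procedure tested on simulated data. The smallest gene length that fit was taken. For a gene with few reads several lengths can fit, so this count does not show that every number is exact. The 12408 genes that reached 0.5 FPKM in 3 or more of 6 libraries were fitted in limma 3.58.1 (R 4.3.3) after median-of-ratios scaling and log2(FPKM + 0.1), with an intensity trend, two-sided, without a block, and Benjamini-Hochberg adjustment over all tested genes. The thresholds (adjusted p under 0.05, absolute log2 fold change over 1) follow the study, which tested read counts. Exact permutation tests used scipy 1.17.1. No 2 libraries were duplicates, since read counts of each pair within a group differed by at least 11.1 chi-square units per degree of freedom. Named genes were the 7 members and the 2 nearest profiles. Same-numbered libraries deviated together at r of only 0.0943, 0.0205 and 0.0338, so the numbers were not taken as pairs. Alternatives were other pseudocounts, filters, scalings and priors, TREAT, a replicate block, limma-voom, libraries numbered 2 and 3 only, and each library left out.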

Additional observations from a re-analysis of the deposited data

How the results depend on the processing

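Over 18 alternatives per gene, no log2 fold change turned its direction. *Dcn* (4.089 to 4.347) and *Lox* (1.364 to 1.484) passed both thresholds in all of them. *Col3a1* (−0.883 to −0.479) kept its adjusted p under 0.05 in 17, the exception being TREAT against a 2-fold change (−0.872), which by design calls no smaller change. *Col1a1* kept it in 15 and lost it with TREAT and without a filter (−0.349 each, adjusted p = 1 and 0.0852) and with quantile normalization (−0.063). *Fn1* passed with limma-voom (−0.159), quantile normalization (−0.246), replicates 2 and 3 only (−0.154) and without IL−1β library 1. *Sparc* passed with limma-voom (−0.198), replicates 2 and 3 only (−0.237), without IL−1β library 1 and, just under the threshold (adjusted p rounding to 0.05), without a trend (−0.198). The cause of these shifts was not tested. The median change over tested genes was 0.058 for FPKM as deposited and −0.051 for quantile-normalized values, but quantile normalization moved the abundant genes by more and not alike, with *Col3a1* going from −0.872 to −0.479, *Col1a1* from −0.349 to −0.063 and *Fn1* from −0.159 to −0.246.

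Leaving out each library in turn gave −0.379 to −0.305 for *Col1a1*, −0.925 to −0.125 for *Col1a2*, −0.193 to −0.121 for *Fn1* and −0.247 to −0.167 for *Sparc*. Of the 7 genes, the number lower with an adjusted p under 0.05 was 2, and it was 0 with TREAT, 1 without a filter, 3 without a trend, 4 with limma-voom and with replicates 2 and 3 only, and 2 to 4 with a library left out (4 without IL−1β library 1). All tested genes past both thresholds numbered 666 higher and 412 lower, 358 and 162 with TREAT (358 and 162 also by its adjusted p alone), and 231 lower with a pseudocount of 1. The share held by the 7 genes differed by −0.602 percentage points of FPKM and by −1.354 of reads.

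With the replicate number as a block, the log2 fold change of *Col1a1* was −0.349 (adjusted p = 0.0216), and the block changed no call of the 7 genes. The planned counts over further matrix lists were not run for want of symbols. Depth did not limit the 7 genes, whose lowest recovered number was 2949 reads.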
